A study of Mus musculus with 2 samples.

Results

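The interferon-gamma axis was followed here through 7 mouse genes in single cells of Lewis lung carcinoma (LLC) tumors. The genes were taken by name from the gene table of the count matrices, which lists 32285 genes, of which 23372 had at least 1 UMI in the cells kept. They were Ifng, the cytokine interferon gamma; Ifngr1, the ligand-binding chain of its receptor; Irf1, a transcription factor that the receptor's signal switches on; Cxcl9 and Cxcl10, secreted chemokines; Cxcr3, the receptor for both on lymphocytes; and Ubd, which encodes the ubiquitin-like modifier FAT10. Each was counted in unique molecular identifiers (UMIs, one per captured transcript) in every cell class and in both libraries.

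Interferon gamma is made mainly by activated T cells and natural killer cells. Its receptor signals through JAK kinases, and the signal, carried on in part by IRF1, switches on guanylate-binding proteins, antigen presentation genes and the CXCR3 ligands. In tumors, CXCL9 is a product of macrophages and dendritic cells that draws CXCR3-bearing T cells, and endothelial cells (ECs) and fibroblasts can also answer interferon gamma.

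The study asked what the loss of soluble guanylyl cyclase (sGC), the nitric oxide receptor, in pericytes does to tumor vessels and tumor growth. The control group (sGC Ctr) carried Gucy1b1 flox/flox, loxP sites around the gene for the β1 subunit of sGC, with no Cre. The deletion group (sGC ∆PC) carried Cspg4-CreERT2::Gucy1b1 flox/flox, spelled Gucyc1b1 in the label, in which a tamoxifen-dependent Cre runs from the promoter of the pericyte gene Cspg4. All mice were C57BL/6 and were given tamoxifen in 5 doses when 4 weeks old and LLC cells under the skin when 8 weeks old, and their tumors were taken 2 weeks after that. Cells of 3 tumors were pooled into 1 library per condition for 10x Genomics 3' sequencing, so library and condition cannot be told apart. There is no replicate and no test, and each interval below is an exact 95% interval that covers counting error only.

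The sGC Ctr library held 15007 barcodes and the sGC ∆PC library 25631, of which 12220 and 22498 were kept. The median was 35776.5 UMIs a kept cell in sGC Ctr against 8685 in sGC ∆PC, and 131 barcodes occurred in both libraries. Cells were sorted into 11 classes by marker genes. The markers of 1 class alone passed in 10741 cells of sGC Ctr and 17458 of sGC ∆PC. Another 548 and 2039 cells passed the gates of more than 1 class and were left out, 297 and 1415 of them with both macrophage and cancer cell markers, and 931 and 3001 cells passed none. A class set by such a cut is a range rather than a type, and no doublet caller was run. As a check of the labels, Gucy1b1 in pericytes stood at 133 CPM (58 UMIs) in sGC Ctr against 41.1 (12 UMIs) in sGC ∆PC, a log2 ratio of -1.69 (-2.73 to -0.78), although the counts do not show whether the 3' reads lie in the deleted part of the gene.

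The 8 classes with at least 20 cells in each library carry the results. In sGC Ctr and sGC ∆PC respectively they held 71 and 65 T cells, 281 and 330 granulocytes, 2514 and 3300 macrophages, 41 and 34 dendritic cells, 59 and 57 ECs, 35 and 35 pericytes, 127 and 248 fibroblasts, and 7586 and 13369 cancer cells. Of dendritic cells 10 of 41 and 6 of 34 lay within 1.5 times the cut, of granulocytes 19 and 34, of macrophages 152 and 337, of fibroblasts 6 and 21 and of cancer cells 148 and 210, and in each of the other 3 classes no more than 2 cells did. Levels are given as CPM, the UMIs of a gene scaled to a common total of UMIs in each class, and ratios as log2 of sGC ∆PC over sGC Ctr, so a positive value is higher in sGC ∆PC.

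Lyz2, the lysozyme gene of myeloid cells, differed between libraries outside macrophages. It stood at 160 CPM in cancer cells of sGC Ctr and 397 in sGC ∆PC, at 172 and 433 in fibroblasts, at 121 and 452 in pericytes and at 207 and 659 in dendritic cells. In ECs it stood at 166 and 139, and in macrophages themselves at 17606 and 16916. The level of a gene that would follow if all the Lyz2 of a class were macrophage RNA is given below as its Lyz2-expected level.

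The 7 genes lie on 5 chromosomes of the GRCm38 (mm10) genome, and all are annotated as protein coding. Cxcl9 (chr5:92321347-92328079) and Cxcl10 (chr5:92346638-92348889) sit on the minus strand of chromosome 5 with 18558 bases between them. Ifng (chr10:118441046-118445892) and Ifngr1 (chr10:19591949-19610229) share chromosome 10 on the plus strand. Irf1 (chr11:53770014-53778374, plus), Cxcr3 (chrX:101731535-101734269, minus) and Ubd (chr17:37193892-37196095, plus) are alone on theirs.

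The promoters of Irf1 and of both neighboring chemokines are shown because these 3 genes answer the cytokine and differed between classes. They are RefSeq sequences of build GRCm38.p6, 250 bases before to 50 after the start, 5′ to 3′ on the strand of the gene. Capitals mark a match on either strand to the gamma-activated site, GAS (TTCNNNGAA), or to the core of the interferon-stimulated response element, ISRE, which is GAAA, any 2 bases and GAAA again.
Irf1, chr11:53769764-53770063, plus: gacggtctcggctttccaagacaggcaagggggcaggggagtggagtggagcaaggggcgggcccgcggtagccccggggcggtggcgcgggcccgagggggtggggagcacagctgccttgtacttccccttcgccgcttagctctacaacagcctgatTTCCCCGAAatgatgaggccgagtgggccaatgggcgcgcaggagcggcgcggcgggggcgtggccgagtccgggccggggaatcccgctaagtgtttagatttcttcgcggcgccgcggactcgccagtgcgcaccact
Cxcl10, chr5:92348840-92349139, minus: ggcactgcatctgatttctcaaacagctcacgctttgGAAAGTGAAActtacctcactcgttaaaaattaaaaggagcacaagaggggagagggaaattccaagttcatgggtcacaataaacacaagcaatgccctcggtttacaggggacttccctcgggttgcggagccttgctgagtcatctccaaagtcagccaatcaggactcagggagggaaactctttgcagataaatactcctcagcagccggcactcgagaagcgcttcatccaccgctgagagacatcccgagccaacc
Cxcl9, chr5:92328030-92328329, minus: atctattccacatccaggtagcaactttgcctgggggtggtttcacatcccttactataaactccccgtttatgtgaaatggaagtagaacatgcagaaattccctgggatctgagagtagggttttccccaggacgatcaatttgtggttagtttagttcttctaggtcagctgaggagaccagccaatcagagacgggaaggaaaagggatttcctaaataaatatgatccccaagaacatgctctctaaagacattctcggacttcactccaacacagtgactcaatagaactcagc
The Irf1 promoter, the first of 2 listed for the gene, held a GAS match 90 bases before the start, and the Cxcl10 promoter an ISRE core match 213 bases before it. No match to these letters was found in the Cxcl9 window, nor in those of Ifngr1, Cxcr3 and Ubd, and the Ifng window held a GAS match 249 bases before its start. Of 32851 promoters of this length, 8.30% held the GAS letters and 3.44% the ISRE core letters. A match describes the letters and does not show binding.

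Ifng, the ligand, had its highest level in T cells, in few of them, and counting error did not separate the T cell levels of the libraries. Over all kept cells it had 27 UMIs in 12 cells of sGC Ctr and 55 UMIs in 36 cells of sGC ∆PC. In T cells, 20 UMIs in 5 of 71 cells of sGC Ctr gave 77.1 CPM (47.1 to 119), and 18 UMIs in 10 of 65 cells of sGC ∆PC gave 57.3 (34 to 90.5). The log2 ratio was -0.43 with an interval from -1.43 to 0.57, wide enough to hold a 2-fold lower level. With mitochondrial UMIs limited to under 5% the ratio was 0.65, and without the highest cell of each library it was 0.33, so its direction is not fixed by these counts.

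The spread of Ifng over T cells differed more than its sum. In sGC Ctr the T cell with the most held 10 of the 20 UMIs, whereas in sGC ∆PC no T cell held more than 3. At an equal depth of 2000 UMIs a cell, 6.56% of T cells in sGC Ctr and 8.33% in sGC ∆PC held an Ifng UMI. CD8 T cells, those with a Cd8a or Cd8b1 UMI and no Cd4 UMI, held 17 and 16 of the UMIs, and CD4 T cells held 0 in both libraries. The 12 and 9 natural killer cells also held 0, which allows up to 67.9 and 58.9 CPM.

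Outside T cells Ifng was near nil in each class, yet summed over many cells it made a larger part of the sGC ∆PC total. T cells and natural killer cells held 20 of the 25 Ifng UMIs found in a class in sGC Ctr, 80% (59.3 to 93.2), and 18 of 43 in sGC ∆PC, 41.9% (27.0 to 57.9). Most of the other UMIs were in cells gated as cancer cells, with 4 UMIs in 4 cells of sGC Ctr and 23 UMIs in 16 cells of sGC ∆PC. The ratio in cancer cells was 2.78 (1.23 to 4.77). At equal depth it was 0.46 from 0 and 7 UMIs, with sGC Ctr set at a floor of 3 counts. Of those 16 cells, 9 also held a UMI of Cd3d, Cd3e, Cd3g, Trac or Trbc2, the genes of the T cell receptor complex, against 3.28% of all cancer cells in that library. In sGC Ctr 0 of the 4 did, against 2.23%. This breakdown was chosen after the values were seen, and the part of T cell RNA in the cancer cell value was not tested.

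Ifng had the same T cell pattern as other lymphocyte genes. Over 16 points, 8 classes in each of 2 libraries, the genes with the highest Pearson r to Ifng on log2(CPM + 1) were Cd3g (0.996), Lat (0.995), Gata3 (0.993), Gimap7 (0.993) and Gzmb (0.992), among 13910 genes with at least 200 UMIs. Cd3g and Lat were themselves T cell gate markers, and points of a library share its depth and free RNA, so the values describe a pattern only. Gata3 is a T cell transcription factor and Gzmb the protease granzyme B of cytotoxic cells.

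**Figure D1:**
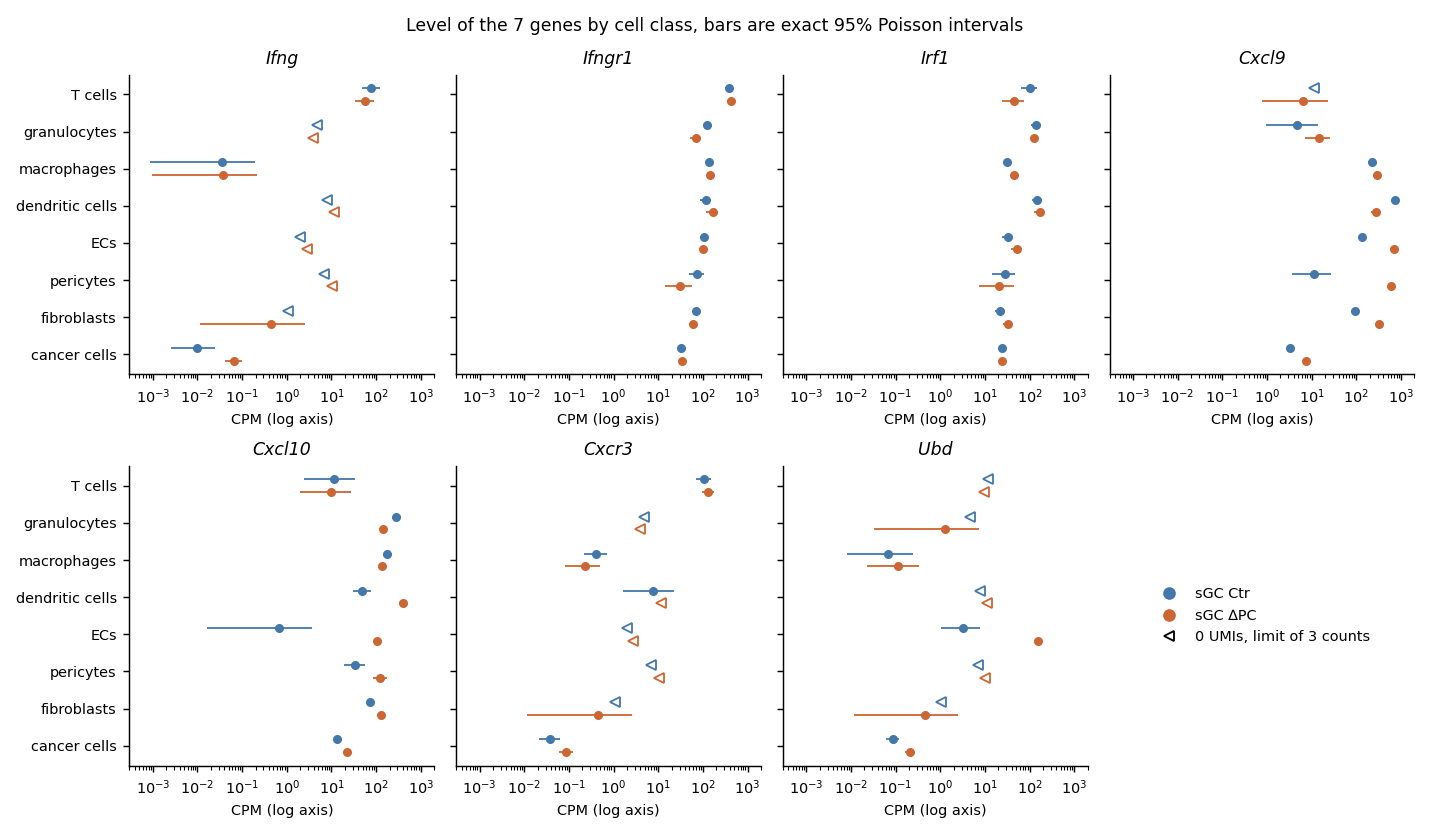
Level of each of the 7 genes in CPM (log axis) in the 8 classes, with sGC Ctr in blue and sGC ∆PC in orange. Points are levels, bars exact 95% Poisson intervals, and open triangles classes with 0 UMIs placed at the limit of 3 counts. Ifng and Cxcr3 are highest in T cells, Ifngr1 lies above 30 CPM in every class, and Ubd in ECs runs from 3.27 to 153.

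Ifngr1, the receptor chain, was found in each of the 8 classes and differed little between libraries where counts were high. Of these classes T cells had the highest levels, at 393 CPM (320 to 477) in sGC Ctr and 417 (349 to 495) in sGC ∆PC. Natural killer cells, too few to be among the 8 classes, held 27 Ifngr1 UMIs of 44157 in sGC Ctr and 35 of 50904 in sGC ∆PC. That is a higher part than in T cells, on few counts. Macrophages, granulocytes, dendritic cells and ECs followed in sGC Ctr at 139, 125, 117 and 103, and of these the intervals of neighbors in that order overlap. Of the 8 classes, cancer cells held the lowest levels, 32 (31.5 to 32.5) in sGC Ctr and 33.3 (32.7 to 33.9) in sGC ∆PC, apart from 9 UMIs in sGC ∆PC pericytes.

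The Ifngr1 ratio was close to 0 in T cells at 0.09 (-0.30 to 0.47), in ECs at -0.07 (-0.44 to 0.29), in macrophages at 0.08 (0.02 to 0.14) and in cancer cells at 0.06 (0.02 to 0.09). The macrophage and cancer cell values were on both sides of 0 depending on the treatment of the counts. In macrophages thinned to 2000 UMIs the ratio was -0.09, and with each cell given equal weight it was -0.10. In ECs thinned to that depth it was 0.66. In cancer cells it was -0.04 after the Lyz2-expected level was subtracted, an alternative chosen after seeing the data. None of the 4 intervals given first reached a 2-fold difference, but that of ECs at equal depth ran from -0.75 to 2.16.

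Ifngr1 was lower in sGC ∆PC in granulocytes and in pericytes. Granulocytes held 79 UMIs in sGC Ctr against 54 in sGC ∆PC, 125 and 70.1 CPM, for a ratio of -0.83 (-1.36 to -0.31). At equal depth, 19.4% of sGC Ctr and 13.4% of sGC ∆PC granulocytes held an Ifngr1 UMI. Pericytes, the cells in which Gucy1b1 was deleted, held 32 UMIs in 23 of 35 cells in sGC Ctr and 9 UMIs in 9 of 35 in sGC ∆PC, for a ratio of -1.25 (-2.50 to -0.15). Those pericyte counts are small, and the share of cancer cell RNA estimated in pericytes was 5.52% in sGC Ctr and 12.3% in sGC ∆PC, whose part in the result was not tested. With cells that passed 2 gates kept, the pericyte ratio was -0.65. In pericytes with a cancer cell RNA share under 25% it was -1.30 (-2.63 to -0.15), from 32 and 8 UMIs. Dendritic cells had 117 and 166 CPM, a ratio of 0.51 (-0.13 to 1.14), and fibroblasts 71.5 and 59.0, a ratio of -0.28 (-0.61 to 0.05) and of 0.31 at equal depth.

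The other genes of the receptor and its signaling, a list of 9 with Ifngr1, pointed in no common direction over the classes. In macrophages 5 of 9 were higher in sGC ∆PC and 4 lower, where 40.4% of all genes were higher. Their median ratio was 0.08 beside -0.05 over all 11933 genes with at least 50 UMIs. Of those measured, 1 of 7 was higher in ECs and 0 of 3 in pericytes, where 50.2% and 42.8% of all genes were. In cancer cells 7 of 9 were higher, where 51.6% of all genes were. Fibroblasts had 5 of 9 and granulocytes 3 of 8 higher, where 43.0% and 49.4% of all genes were. Dendritic cells had 2 of 5 and T cells 1 of 3, where 45.0% and 41.6% were. Jak1, the kinase bound to the receptor chain, was at 141 and 134 in macrophages.

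Irf1, the transcription factor, was higher in sGC ∆PC in macrophages, ECs and fibroblasts and lower in T cells. Macrophages held 911 UMIs at 31.5 CPM (29.4 to 33.6) in sGC Ctr and 1207 UMIs at 45.8 (43.3 to 48.5) in sGC ∆PC, a ratio of 0.54 (0.42 to 0.67). The share of macrophages with an Irf1 UMI at equal depth was 6.44% in sGC Ctr against 7.36% in sGC ∆PC, and the ratio was 0.29 at that depth. So the direction held in macrophages and the size was smaller once depth was equal.

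In ECs Irf1 stood at 32.7 CPM (24.3 to 43.2) in sGC Ctr and 51.1 (38.5 to 66.5) in sGC ∆PC, a ratio of 0.64 (0.06 to 1.22). At equal depth 5.26% and 5.56% of ECs held an Irf1 UMI and the ratio was 0.08. In fibroblasts it stood at 22.2 and 33.1, a ratio of 0.58 (0.07 to 1.09). The lower ends of both intervals lie near 0, so neither class separates the libraries firmly.

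T cells held 26 Irf1 UMIs in 17 cells of sGC Ctr and 14 UMIs in 10 cells of sGC ∆PC, 100 and 44.6 CPM, a ratio of -1.17 (-2.22 to -0.18). The ratio was -0.49 at equal depth and -2.99 with mitochondrial UMIs under 5%. Cancer cells, the largest class, differed little, with 24.0 CPM in sGC Ctr, 24.7 in sGC ∆PC and a ratio of 0.04 (-0.0022 to 0.08). The ratio was -0.15 (-0.59 to 0.28) in granulocytes, 0.20 (-0.40 to 0.79) in dendritic cells and -0.42 (-2.12 to 1.11) in pericytes. Granulocytes at 137 and 123 CPM and dendritic cells at 148 and 169 held the highest levels in both libraries.

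**Figure D2:**
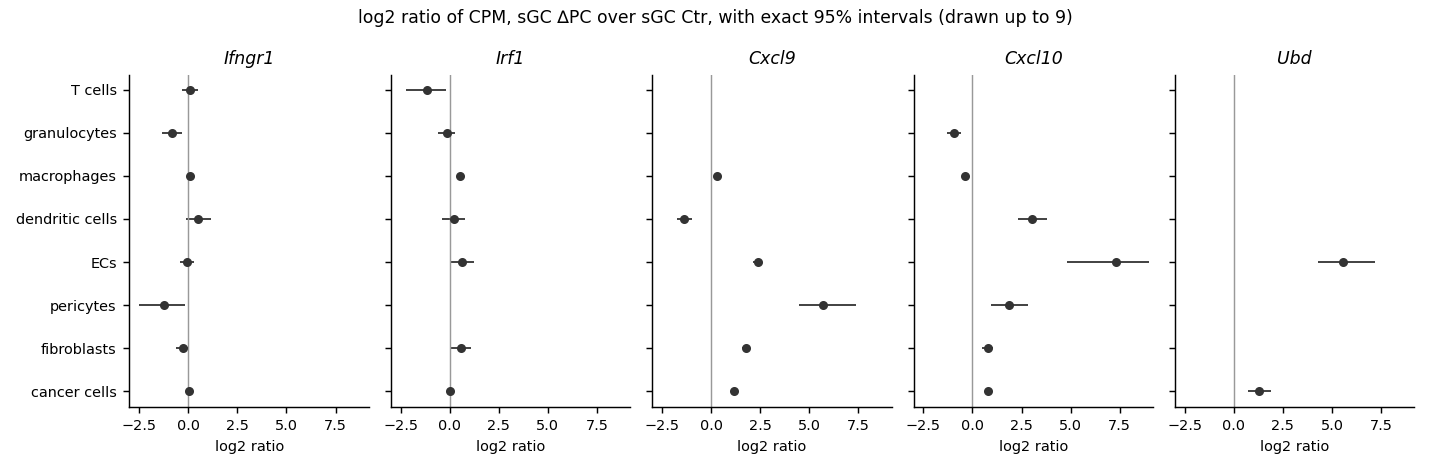
log2 ratio of sGC ∆PC over sGC Ctr for 5 of the genes (x axis) in each class with enough UMIs (y axis). Points are ratios of CPM, bars exact 95% intervals drawn up to 9, and the grey line is a ratio of 0. Ifngr1 lies at 0.08 and 0.06 in macrophages and cancer cells and Irf1 at 0.54 and 0.04, while Cxcl9, Cxcl10 and Ubd in ECs lie at 2.38, 7.34 and 5.55.

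Cxcl9 was mainly a macrophage transcript in both libraries. Macrophages held 6648 of the 8760 Cxcl9 UMIs found in a class in sGC Ctr, 75.9% (75.0 to 76.8), and 7479 of 11764 in sGC ∆PC, 63.6% (62.7 to 64.4). Over all kept cells the gene had 9897 and 15027 UMIs. By level, dendritic cells came first in sGC Ctr at 720 CPM (638 to 810), then macrophages at 230 (224 to 235), ECs at 132 (114 to 151) and fibroblasts at 95.4 (84.4 to 107). In sGC ∆PC, ECs at 683 (635 to 735) and pericytes at 606 (520 to 702) came first with overlapping intervals. Fibroblasts at 329 (306 to 354), macrophages at 284 (278 to 290) and dendritic cells at 279 (219 to 350) followed. A single pericyte held 161 of the 177 pericyte UMIs, so the place of pericytes in this order rests mostly on 1 cell, without which 16 UMIs remain.

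T cells and granulocytes had little Cxcl9 and are given for comparison. The level of free RNA itself was not estimated. T cells held 0 Cxcl9 UMIs in sGC Ctr, which allows up to 11.6 CPM, and 2 UMIs in sGC ∆PC. At 2000 UMIs a cell, 0% of T cells and 1.29% of granulocytes in sGC Ctr and 3.33% and 2.99% in sGC ∆PC held a Cxcl9 UMI, and unthinned the shares were 0%, 0.71%, 3.08% and 3.03% at median depths of 2989, 2079, 3769 and 2274 UMIs. No T cell or granulocyte held more than 2 Cxcl9 UMIs.

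In macrophages the Cxcl9 level differed by a ratio of 0.31 (0.26 to 0.35), and the share of cells that held it by more. The gene was found in 226 of 2514 macrophages in sGC Ctr, 8.99% (7.90 to 10.2), and 550 of 3300 in sGC ∆PC, 16.7% (15.4 to 18), although the sGC ∆PC cells were shallower with medians of 10464 and 6115.5 UMIs. At 2000 UMIs a cell the shares were 5.76% (4.88 to 6.75) of 2499 cells and 11.7% (10.4 to 13.0) of 2501 cells, with 15 and 799 shallower cells left out. The ratio of levels was 0.20 at that depth, 0.12 without the 5% of cells with the most UMIs and 0.05 with each cell given equal weight, so its direction held and its size did not.

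The difference in share lay in cells with few Cxcl9 UMIs. At equal depth, 1.481% (1.04 to 2.03) of sGC Ctr and 4.16% (3.41 to 5.02) of sGC ∆PC macrophages held exactly 1 Cxcl9 UMI. Cells with 2 to 4 made up 1.481% (1.04 to 2.03) and 3.96% (3.23 to 4.80). Cells with 5 or more made up 2.80% (2.19 to 3.53) and 3.56% (2.87 to 4.36), intervals that overlap. The interval of the share with a single UMI in sGC ∆PC overlaps that of granulocytes, 2.99% (1.10 to 6.38), in which 0 cells held 5 or more. The share with 2 to 4 UMIs was 0% (0 to 1.82) in sGC ∆PC granulocytes, an interval below that of macrophages. Unthinned, cells with 10 or more UMIs made up 4.46% and 4.36% of macrophages and held 95.3% and 86.7% of the gene's UMIs. A cell with any Cxcl9 held 29.4 UMIs on average in sGC Ctr against 13.6 in sGC ∆PC, and the highest cells held 263 and 215.

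**Figure D3:**
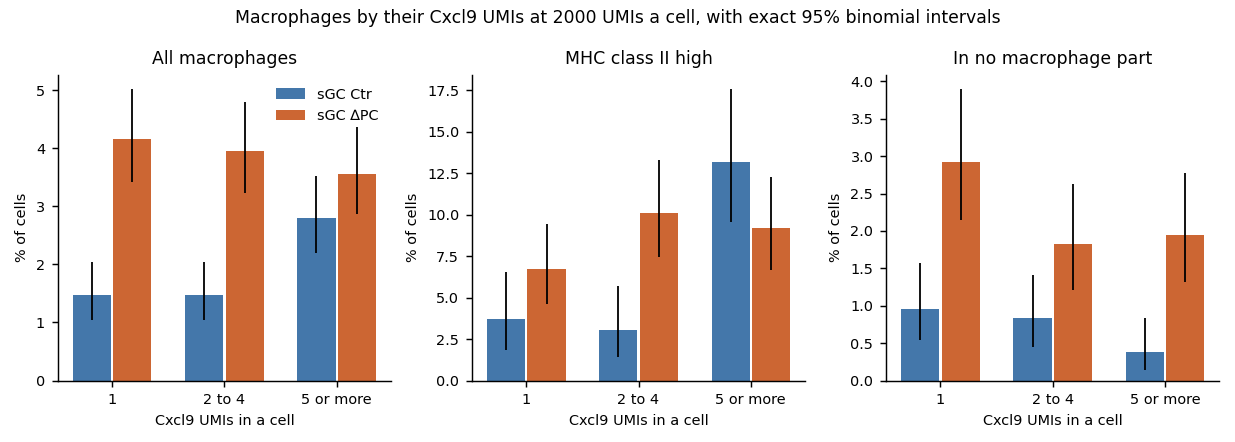
Share of macrophages (y axis, % of cells) with 1, 2 to 4 or 5 or more Cxcl9 UMIs at 2000 UMIs a cell (x axis), for all macrophages, those high in MHC class II and those in no macrophage part. Bars start at 0, with exact 95% binomial intervals in black. In all macrophages the classes of 1 and of 2 to 4 UMIs are larger in sGC ∆PC and the intervals of 5 or more overlap, while cells in no part show 0.38% against 1.95% with 5 or more.

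Macrophages were further divided by markers into monocytes, Mrc1 macrophages and macrophages high in MHC class II. MHC class II high macrophages had the highest Cxcl9 of the 3, at 949 CPM (915 to 984) in sGC Ctr and 805 (779 to 831) in sGC ∆PC, and they made up 11.8% (297 cells) and 17.6% (582 cells) of macrophages. Their own ratio was -0.24 (-0.31 to -0.17). Monocytes also had less in sGC ∆PC, 91.6 against 59.3 CPM, with a ratio of -0.63 (-1.03 to -0.23).

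Mrc1 macrophages had 286 and 332 CPM, a ratio of 0.22 (0.11 to 0.32). Among these divisions the ratio was highest in the macrophages that passed no such gate, 1577 cells in sGC Ctr and 2158 in sGC ∆PC, at 45.9 (42.9 to 49.2) and 108 (103 to 114) CPM, a ratio of 1.24 (1.12 to 1.36). In them 0.38% (0.14 to 0.83) and 1.95% (1.32 to 2.77) held 5 or more UMIs at equal depth. A further 60 and 81 macrophages passed more than 1 of the gates, with 2001 and 914 CPM. Of the MHC class II high cells 56 and 160 lay within 1.5 times the cut, so their share moves with it.

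Macrophages with Cxcl9 carried other interferon-induced genes at higher levels than macrophages without it in both libraries. With each cell thinned to 2000 UMIs, 144 cells with Cxcl9 were set against 2355 without in sGC Ctr, and 292 against 2209 in sGC ∆PC. Of 23 interferon gamma-induced genes measured 13 were at least 2-fold higher in both libraries, beside 0.925% of 7457 genes, with median log2 ratios of 1.93 and 1.26 where the median of all genes was -0.01 and -0.00034. All 7 GTPases measured were among them, with Gbp2 at 4.37 and 2.84 and Iigp1 at 4.81 and 2.78. All 6 MHC class II genes were too, with medians of 2.06 and 1.72, and 3 of 7 type I interferon-stimulated genes.

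The largest ratios common to both libraries were those of Calhm6, at 5.44 and 3.34, and AW112010, at 3.92 and 3.32, chosen after their values were seen. Cxcl10 was held by 30.6% of Cxcl9 cells and 4.88% of the others in sGC Ctr, and by 19.2% and 6.38% in sGC ∆PC. Irf1 was higher in Cxcl9 cells at 1.77 (1.18 to 2.33) and 0.83 (0.32 to 1.32). Ifngr1 was lower at -1.21 (-1.95 to -0.55) in sGC Ctr and at -0.35 (-0.74 to 0.02) in sGC ∆PC. Arg1, an enzyme of alternatively activated macrophages, was lower at -1.38 (-1.66 to -1.11) and -0.68 (-0.81 to -0.55), and Mrc1 was at -0.36 and -0.27. Cells of 1 library are not replicates, so these intervals cover counting error only.

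Dendritic cells had a lower Cxcl9 level in sGC ∆PC, opposite to the level in macrophages as a whole but not to that in their MHC class II high part or monocytes. In sGC Ctr 278 UMIs lay in 10 of 41 cells and in sGC ∆PC 74 UMIs in 7 of 34, for levels of 720 and 279 CPM and a ratio of -1.37 (-1.76 to -0.995). The highest cells held 107 and 42 UMIs, and without the highest cell of each library the ratio was -1.84. At equal depth 20% and 10.3% of the cells held the gene. The value rests on 10 cells in one library and 7 in the other.

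In ECs, the cells that line vessels, Cxcl9 was higher in sGC ∆PC. The 59 ECs of sGC Ctr held 201 UMIs in 8 cells and the 57 of sGC ∆PC held 736 UMIs in 13 cells, 132 and 683 CPM, a ratio of 2.38 (2.15 to 2.61). In sGC Ctr the highest cells held 107, 43 and 36 UMIs and no other cell more than 5. In sGC ∆PC, 8 cells held at least 10, with 212, 200, 131, 92, 53, 17, 14 and 12.

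The share of ECs with Cxcl9 was 13.6% (6.04 to 25) and 22.8% (12.7 to 35.8), and 5.26% and 16.7% at equal depth. The ratio was 3.00 without the highest cell of each library, 2.15 at equal depth and 1.41 with each cell given equal weight. The direction was the same under every alternative tried, and the value rests on 3 cells in one library and 8 in the other. Each of these 11 cells held 7 or 8 of the 8 EC markers and between 1 and 4 of the 8 macrophage markers, with 1 to 6 Lyz2 UMIs. The Lyz2-expected Cxcl9 level in ECs was 2.16 CPM in sGC Ctr and 2.34 in sGC ∆PC. In sGC ∆PC the Lyz2 level was 116 CPM in ECs with Cxcl9 and 150 in those without. The 12 and 66 cells that passed both the EC and the cancer cell gate, left out above, held 6 and 262 Cxcl9 UMIs.

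Pericytes held 5 Cxcl9 UMIs in 2 cells of sGC Ctr and 177 in 5 cells of sGC ∆PC, 11.5 and 606 CPM. A single cell held 161 of the 177, or 91.0%, and it carried 7 of the 8 pericyte markers, 2 of the 8 macrophage markers and 3 Lyz2 UMIs. The ratio of 5.73 (4.48 to 7.37) thus rests mostly on 1 cell, and without the highest cell of each library 1 UMI and 16 UMIs remain, a ratio of 4.66 (1.97 to 10.05).

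Fibroblasts held 271 UMIs in 12 cells of sGC Ctr and 726 in 19 of sGC ∆PC, 95.4 and 329 CPM, a ratio of 1.79 (1.58 to 1.99). Cells with at least 10 UMIs numbered 3 and 9, and the highest held 177 and 216. Of these cells, 1 in each library, with 34 and 163 Cxcl9 UMIs, also held 8 and 7 of the 8 macrophage markers and 37 and 53 Lyz2 UMIs. The share of fibroblasts with the gene was 9.45% and 7.66%, and with each cell given equal weight the ratio was -0.02. Median depths were 21649 and 2775.5 UMIs, and those of fibroblasts with Cxcl9 were 25292 and 26070, so the cells with the gene in sGC ∆PC were deep ones. At equal depth, with 4 and 85 cells left out, 4.88% and 7.36% held it and the ratio was 1.03.

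Cancer cells had low Cxcl9, 3.23 CPM (3.06 to 3.41) in sGC Ctr and 7.29 (7.01 to 7.58) in sGC ∆PC, a ratio of 1.18 (1.08 to 1.27). The Lyz2-expected level was 2.09 and 6.67 in the same cells. After it was subtracted the ratio of the remainders was -0.86, the opposite direction. At equal depth 0.51% (0.36 to 0.70) and 1.81% (1.58 to 2.05) of cancer cells held a Cxcl9 UMI. The granulocyte shares of 1.29% (0.16 to 4.58) and 2.99% (1.10 to 6.38), from 2 and 6 cells, have intervals that overlap these. Unthinned, 25 and 33 cancer cells held 10 or more, up to 84 and 40, at median depths of 50482.5 and 13387 UMIs a cell. No granulocyte reached such counts, but the medians of granulocytes were only 2079 and 2274 UMIs. At 2000 UMIs a cell, 0 and 1 cancer cells held 10 or more. The 25 and 33 unthinned cells held 62.3% and 24.4% of the Cxcl9 UMIs of the class, and in sGC Ctr 14 of 7586 cells held 50%. Both ratios thus rest in part on few cells.

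Over the 16 class sums, the genes whose pattern was most like that of Cxcl9 were Spop (Pearson r 0.938), Clptm1 (0.910), Clic4 (0.881), Tlr3 (0.873) and Phf11d (0.864). Tlr3 encodes a sensor of double-stranded RNA and Spop an adaptor of a ubiquitin ligase. Cxcl10, its neighbor, had an r of 0.396 to Cxcl9. These 16 points share libraries and depth, and no test was made.

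Cxcl10, the other CXCR3 ligand, was less tied to macrophages. Cancer cells held 50.2% of its UMIs in sGC Ctr against 65.6% in sGC ∆PC, and macrophages 45.9% and 29.0%. In cancer cells its level was 13.0 CPM (12.6 to 13.3) in sGC Ctr and 22.7 (22.2 to 23.2) in sGC ∆PC, a ratio of 0.81 (0.76 to 0.86). The Lyz2-expected level made up 12.0% and 13.8% of it, and the remainders had a ratio of 0.78, so unlike Cxcl9 it was little moved by that subtraction.

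In macrophages Cxcl10 went the other way from Cxcl9. It stood at 171 CPM (166 to 176) in sGC Ctr and 134 (129 to 138) in sGC ∆PC, a ratio of -0.36 (-0.42 to -0.29). The share of macrophages with Cxcl10 at equal depth was 6.36% and 7.88%, higher in sGC ∆PC, so the lower sum came with fewer UMIs a cell, with highest cells of 377 and 203. Among macrophage divisions monocytes differed most, from 357 to 106 CPM with a ratio of -1.75 (-2.02 to -1.49), and MHC class II high macrophages did not differ beyond counting error at 211 and 213.

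Granulocytes had 271 and 140 CPM of Cxcl10, a ratio of -0.95 (-1.31 to -0.60), held by 14 and 22 cells. This direction was not stable. With 1 more marker required the ratio was 0.44, and in granulocytes with a cancer cell RNA share under 25% it was 0.03. Dendritic cells held 19 UMIs in 4 cells and 107 in 6, of which the highest held 14 and 70, for 49.2 and 403 CPM and a ratio of 3.03 (2.32 to 3.82) and of 1.63 at equal depth.

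ECs held 1 Cxcl10 UMI in sGC Ctr and 114 UMIs in 10 cells in sGC ∆PC, 0.65 CPM (0.017 to 3.65) against 106 (87.3 to 127). The ratio was 7.34 with an interval from 4.83 to 12.65, and a single UMI stands in the denominator. The highest cells of sGC ∆PC held 28, 22, 21, 18 and 11 UMIs. With cells that passed 2 gates kept the ratio was 4.96, from 5 and 116 UMIs. At 2000 UMIs a cell, 0 and 12 UMIs gave 2.08 against a floor of 3 counts, with an interval that starts at 1.55. The size of the ratio is thus not fixed by these counts. At equal depth 0% and 9.26% of ECs held the gene, and the Lyz2-expected level was 1.61 and 1.10 CPM. In the cells that passed both the EC and the cancer cell gate the order was reversed, with 24 UMIs in 2 of 12 cells and 9 in 3 of 66.

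Pericytes had 34.4 and 123 CPM of Cxcl10, with 15 UMIs in 5 cells and 36 in 7, a ratio of 1.84 (0.94 to 2.82), which was 0.39 with cells that passed 2 gates kept and 0.70 with 1 more marker required. Fibroblasts had 74.6 and 127, a ratio of 0.77 (0.50 to 1.03), but a single cell of sGC ∆PC held 180 of the 280 UMIs. Without the highest cell of each library the fibroblast ratio was -0.0041, and at equal depth it was -1.51, so no direction can be given. T cells held 3 UMIs in each library.

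Cxcr3, the receptor for both chemokines, was found in T cells in both libraries at levels that counting error does not separate. T cells held 28 UMIs in 20 of 71 cells of sGC Ctr and 42 in 23 of 65 of sGC ∆PC, 108 (71.7 to 156) and 134 (96.3 to 181) CPM, a ratio of 0.31 (-0.41 to 1.05). At equal depth 23% and 26.7% of T cells held it. CD8 T cells held 15 and 13 UMIs and CD4 T cells 3 in 15 cells and 19 in 17, a CD4 ratio of 2.39 (0.63 to 4.79) on few counts.

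Natural killer cells held 7 Cxcr3 UMIs in sGC Ctr against 2 in sGC ∆PC. Macrophages held 12 and 6 UMIs, 0.41 and 0.23 CPM, and cancer cells 16 and 31, 0.038 and 0.088 CPM. Granulocytes, ECs and pericytes held 0 in both libraries, which in ECs allows up to 1.96 and 2.79 CPM. Dendritic cells held 3 and 0 and fibroblasts 0 and 1.

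Ubd, the ubiquitin-like modifier that cytokines induce, was found in ECs of sGC ∆PC. ECs held 5 UMIs in 3 of 59 cells of sGC Ctr, with 3, 1 and 1 UMIs, and 165 UMIs in 9 of 57 cells of sGC ∆PC, with 54, 37, 20, 19, 15, 12, 4, 3 and 1. The levels were 3.27 (1.06 to 7.64) and 153 (131 to 178) CPM and the ratio 5.55 (4.30 to 7.19). Of these 9 cells, 7 held more Ubd than any EC of sGC Ctr.

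The Ubd ratio in ECs was 3.42 with each cell given equal weight. At equal depth 0% and 13.0% of ECs held the gene, with 0 and 17 UMIs, a log2 ratio of 2.58 when sGC Ctr is set at a floor of 3 counts and an exact interval that starts at 2.12. The cells that passed both the EC and cancer cell gates, of which sGC Ctr has 12 and sGC ∆PC 66, held 7 and 46 UMIs, 12.7 and 49.4 CPM, a ratio of 1.97 (0.81 to 3.36). Elsewhere the gene was scarce, with 2 and 3 UMIs in macrophages and 36 and 74 in cancer cells, 0.086 and 0.211 CPM, a ratio of 1.30 (0.70 to 1.91). T cells, dendritic cells and pericytes held 0 in both libraries.

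Cxcl9, Ubd and Cxcl10 were found together in the same ECs of sGC ∆PC. Of 57 cells 13 held Cxcl9, 9 Ubd and 10 Cxcl10, and 6 held all 3, whereas in sGC Ctr 8, 3 and 1 of 59 cells held them and 0 held all 3. The cell with 212 Cxcl9 UMIs held 20 of Ubd and 18 of Cxcl10, and the cell with 200 held 54 and 21. The cell with 92 Cxcl9 UMIs held 0 of both others. This count was chosen after the values were seen. ECs with Cxcl9 in sGC ∆PC were deeper, with a median of 23294 UMIs against 8451 in those without, and in sGC Ctr the medians were 22381.5 and 24275.

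**Figure D4:**
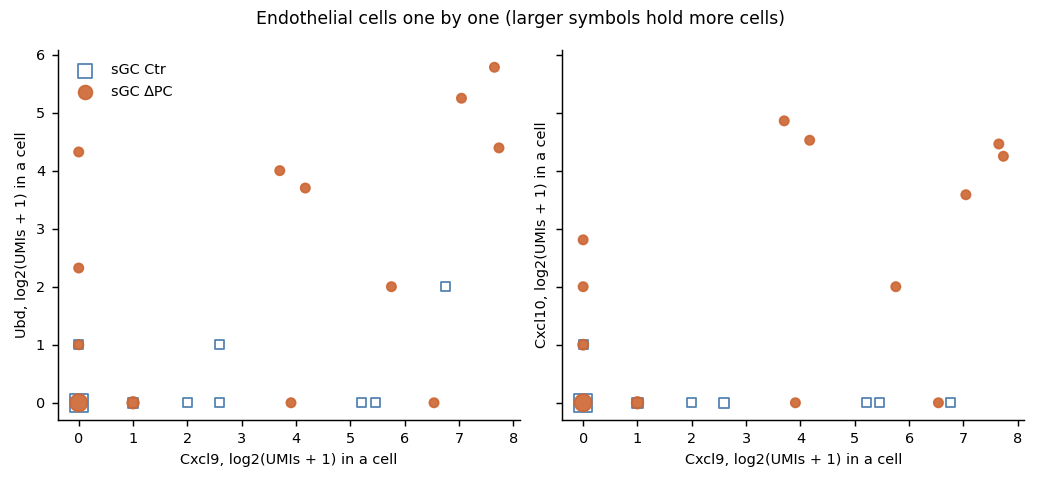
Each EC placed by its Cxcl9 UMIs (x axis, log2(UMIs + 1)) and its Ubd (left) or Cxcl10 UMIs (right, y axes on the same scale), with open squares for sGC Ctr and filled circles for sGC ∆PC. Larger symbols hold more cells. The 6 cells with all 3 genes are sGC ∆PC cells with 12 to 212 Cxcl9 UMIs, and that with 53 holds 3 of Ubd and 3 of Cxcl10. The sGC Ctr cell with 107 Cxcl9 UMIs holds 3 of Ubd and 0 of Cxcl10.

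The genes that interferon gamma induces were read as 3 lists, transcription factors, GTPases and effectors, with 40 genes in all including Irf1 and Ubd. Genes with at least 50 UMIs over both libraries in a class were counted. In macrophages 36 were measured and 33 were higher in sGC ∆PC, with a median ratio of 0.31, where 40.4% of all genes were higher and the median was -0.05. Differences were small, and 1 of 36, Nos2, reached 2-fold at 6.56 and 14.4 CPM, beside 0.863% of all genes 2-fold higher. None of the 36 was 2-fold lower, beside 0.344% of all genes. At equal depth the count at 2-fold was 0, beside 0.824% of all genes, and 25 of 32 measured were higher, with a median of 0.20. With each cell given equal weight 27 of 36 were higher, with a median of 0.13. The share of all genes higher was not taken at these settings.

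Among the GTPases, proteins of cell-autonomous defense, 14 of 15 were higher in macrophages. Gbp2 stood at 68.4 CPM in sGC Ctr and 101 in sGC ∆PC, a ratio of 0.56 (0.48 to 0.65). Iigp1 stood at 30.6 and 51.3, a ratio of 0.74 (0.62 to 0.87). Gbp7 and Ifi47 had ratios of 0.21 (0.11 to 0.32) and 0.32 (0.17 to 0.47).

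All 8 transcription factors were higher in macrophages, from Stat2 at 0.04 to Ciita, the master switch of MHC class II genes, at 0.83. Irf8 had the most UMIs and a ratio of 0.06 (0.00 to 0.12). Of the effectors 11 of 13 were higher. The immunoproteasome subunit gene Psmb8 stood at 270 and 298 CPM, a ratio of 0.14, and Psme1, Psme2 and Tapbp, which serve peptide supply and loading, had ratios of 0.00, 0.11 and 0.20.

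Genes of antigen presentation were also higher in macrophages, all 6 of MHC class II with a median ratio of 0.62 and all 8 of MHC class I with 0.34. Cd74, the MHC class II invariant chain, stood at 1788 and 2674 CPM, a ratio of 0.58. H2-Ab1, H2-Aa and H2-Eb1 had ratios of 0.65, 0.68 and 0.70. The share of MHC class II high macrophages given above rests on these genes and is not a separate result.

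Of type I interferon-stimulated genes 3 of 10 were higher in macrophages, where 40.4% of all genes were, with a median of -0.26 beside -0.05. Isg15, an early antiviral gene, had a ratio of 0.06, Rsad2 -0.42, Irf7 0.19 and Ifit1 -0.46. Cxcl10, which both interferon types induce, was lower in the same cells, as given above. Of the genes that drive Ifng production, such as Il18 and Ebi3, 3 of 7 measured were higher in macrophages, with a median of -0.05. Outside macrophages the type I genes were mostly higher in sGC ∆PC. In ECs 2 of 2 measured were, with a median of 0.83, in fibroblasts 4 of 5 with 0.81 and in granulocytes 6 of 6 with 0.38. Of all genes 50.2%, 43.0% and 49.4% were higher there. Dendritic cells and pericytes had 1 of 1 higher and T cells 0 of 1.

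In ECs 23 of 24 measured interferon gamma-induced genes were higher in sGC ∆PC, with a median ratio of 0.46, where 50.2% of all genes were higher and the median was 0.00. Ubd, Gbp5 at 1.33 and Gbp3 at 1.10 passed 2-fold, 3 of 24 beside 0.769% of all 5982 genes, and 0 were 2-fold lower beside 0.736%. Ubd, with 5 and 165 UMIs, was chosen with earlier results of these data known. It reached 50 UMIs only through sGC ∆PC, so its place in this count is not a separate result. Of the 9 GTPases measured, a list without Ubd, 2 passed 2-fold. Gbp2 stood at 89.1 and 165 CPM, a ratio of 0.89 (0.56 to 1.23), Gbp7 at 0.75 and Gbp4 at 0.73. Irf8 was the exception at -0.14. All 8 MHC class I genes were higher with a median of 0.56. Cd74 in ECs rested on 21 and 117 UMIs, a ratio of 2.98 (2.30 to 3.73), and its Lyz2-expected level was 16.8 and 22 CPM beside 13.8 and 109 measured.

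Fibroblasts had the same direction, with 20 of 22 higher and a median of 0.60 where 43.0% of all genes were higher. Their median depths were 21649 and 2775.5 UMIs. List values in ECs, fibroblasts and cancer cells come from summed UMIs, and were not repeated at equal depth or with each cell given equal weight. Ifi47 at 1.54 (0.87 to 2.23) and Iigp1 at 1.27 (1.05 to 1.505) passed 2-fold, beside 0.909% of all genes 2-fold higher and 0.996% lower, and 0 of the 22 were 2-fold lower. Iigp1 stood at 85.9 and 208 CPM. Of MHC class II genes 2 of 4 were higher, but their Lyz2-expected part had a median of 20.6% of the sGC Ctr level against 89.3% of the sGC ∆PC level, and of the 3 with a remainder 0 were higher. All 8 MHC class I genes were higher, with B2m, the light chain, at 556 and 907 CPM.

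In cancer cells 35 of 37 were higher with a median of 0.80, where 51.6% of all genes were higher and the median was 0.01, and 12 passed 2-fold, beside 3.98% of all 15384 genes 2-fold higher and 0.15% lower. Ubd, with 36 and 74 UMIs and a ratio of 1.30, was among the 12. Gbp2 stood at 8.29 and 13.5 CPM. The Lyz2-expected part of the 37 had a median of 7.30% in sGC Ctr and 16.1% in sGC ∆PC. After it was subtracted 33 of 37 were higher, 7 passed 2-fold and the median was 0.54. All 6 MHC class II genes were higher with a median of 1.43, but their Lyz2-expected part was 39.5% and 60.1%, and all 10 type I genes were higher with a median of 0.68. Irf1 itself stood at 0.04 in these cells, as given above.

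T cells, dendritic cells and granulocytes showed no such clear majority. In T cells 7 of 14 measured interferon gamma-induced genes were higher, where 41.6% of all genes were. Their median was -0.03 beside -0.07 over all genes. In dendritic cells 4 of 14 were higher, where 45.0% of all genes were, with a median of -0.17 beside -0.04. Gbp2 was lower there, at 124 and 52.7 CPM. In granulocytes 6 of 14 were higher, where 49.4% of all genes were, with a median of -0.07 beside -0.01. In pericytes 5 genes were measured, and all 5 were higher, where 42.8% of all genes were, but the intervals of Psmb10, Psme1 and Psme2 held 0.

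**Figure D5:**
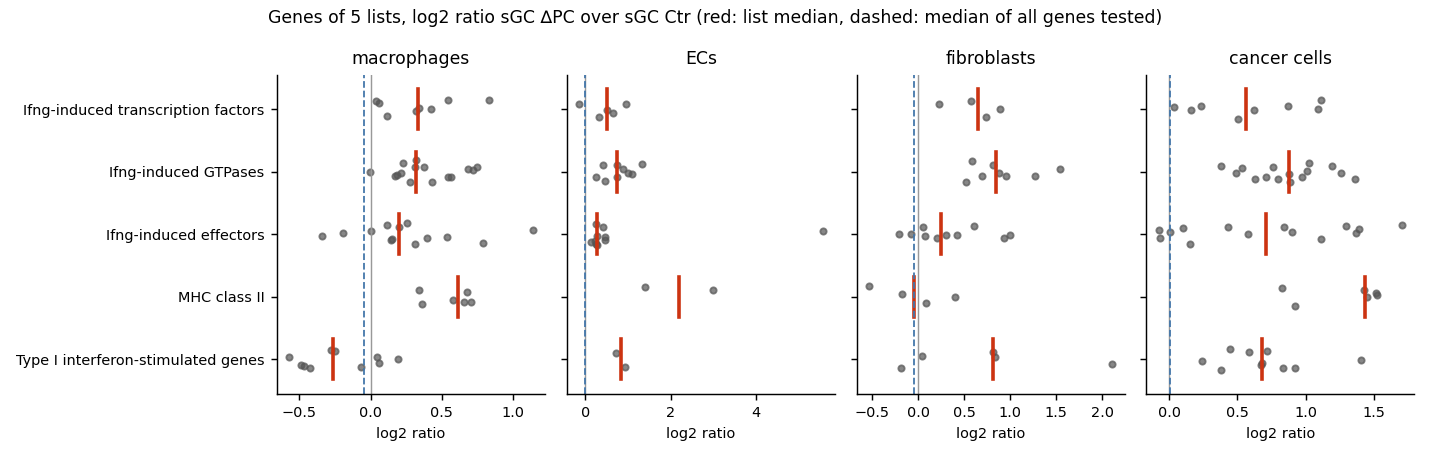
log2 ratio of sGC ∆PC over sGC Ctr (x axis) for each measured gene of 5 lists (rows) in macrophages, ECs, fibroblasts and cancer cells. Grey points are genes, red bars list medians and the dashed line the median of all genes tested. Genes of the interferon gamma-induced lists lie mostly right of the dashed line in all 4 classes. The median of type I genes lies left of it in macrophages, at -0.26, and right of it in ECs, fibroblasts and cancer cells.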

How the data were processed

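The 2 libraries, 1 per condition with cells of 3 pooled tumors each, were sequenced with the 10x Genomics 3' protocol. The authors aligned reads to mm10 and counted UMIs with Cell Ranger 6.1.1, per their processing notes, and deposited raw counts for each gene and barcode. The authors' cell labels were not used here, and no value column was left unmapped.

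A cell had to have under 10% of its UMIs from mitochondrial genes, and its log numbers of UMIs and of genes had to lie no more than 3 scaled median absolute deviations from those of its library. Each was put in a class by the number of class markers found and by their share of its UMIs. Cells that passed the gates of more than 1 class were left out. The 7 genes, the 9 gene lists and the markers were chosen with earlier results of these data known, and the gate cut-offs were set after the data were seen. UMIs were summed per class and library and scaled to CPM, counts scaled to a common total. Levels carry exact Poisson intervals, shares exact binomial (Clopper-Pearson) intervals and ratios exact conditional binomial intervals, all at 95%, and a class with 0 UMIs is given the limit of 3 counts. List genes carry 0.5 UMIs added to each side in counts and medians. Shares were also computed with each cell thinned to 2000 UMIs, shallower cells left out. With 1 library per condition no test was possible.

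The genes named are the 7 members in every class with at least 20 cells in each library, up to 4 genes of a list with the most UMIs in a class, and the 5 genes most like Cxcl9 and most like Ifng. Others are named where a count of 5 or fewer or a singled-out gene called for it, and these were chosen after their values were seen. Cxcl11, Mx1 and Mx2 are not analysed here, and the values of 1 further gene of the lists are not reported here. Alternatives changed the filter on cells, the mitochondrial limit, the gates, mixed cells, the depth and weight of cells, the cancer cell RNA allowed, the deepest cells, the highest cell of a gene, and the fold and minimum of counts for lists. A subtraction of the Lyz2-expected level was added after the data were seen. The scripts were tested on simulated data. Gene positions are from GENCODE on GRCm38 and promoters from RefSeq on GRCm38.p6, found for all 7 genes. Python 3.11.15, numpy 2.4.6, scipy 1.17.1, pandas 2.3.3 and matplotlib 3.10.9 were used.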

Additional observations from a re-analysis of the deposited data

Results flagged for a closer look

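The genes below had log2 ratios of sGC ∆PC over sGC Ctr that lay on both sides of 0 in different classes, each with a counting interval that left out 0. With 1 library per condition these differences between classes were not tested.

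Ifngr1 was higher in sGC ∆PC in macrophages at 0.080 and in cancer cells at 0.058, and lower in granulocytes at -0.83 and in pericytes at -1.25. Irf1 was higher in macrophages at 0.54, in ECs at 0.64 and in fibroblasts at 0.58, and lower in T cells at -1.17. Cxcl9 was higher in macrophages at 0.31, in ECs at 2.38, in pericytes at 5.73, in fibroblasts at 1.79 and in cancer cells at 1.18, and lower in dendritic cells at -1.37. Cxcl10 was higher in dendritic cells at 3.03, in ECs at 7.34, in pericytes at 1.84, in fibroblasts at 0.77 and in cancer cells at 0.81, and lower in granulocytes at -0.95 and in macrophages at -0.36. The pericyte value of Cxcl9 and the fibroblast value of Cxcl10 each rest mostly on 1 cell. Less the Lyz2-expected level, Cxcl9 in cancer cells was at -0.86 and Ifngr1 in cancer cells at -0.042. Ifngr1 in macrophages, Cxcl10 in granulocytes and in fibroblasts, and Cxcl9 in fibroblasts also turned direction under at least 1 alternative.

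The cells outside the classes, those that passed several gates or none, entered none of the class results and also held more of 3 of the genes in sGC ∆PC. There Cxcl9 stood at 51.2 and 108 CPM, a log2 ratio of 1.08 (0.98 to 1.17). Cxcl10 stood at 46.7 and 71.6, a ratio of 0.62 (0.51 to 0.72). Ubd stood at 0.315 and 2.08, from 7 and 63 UMIs, a ratio of 2.72 (1.60 to 4.10).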

How the results depend on the processing

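The first 7 results were the ratios of Irf1 and Cxcl9 in macrophages and of Cxcl9 and Ubd in ECs, the Ifng shares and a count. The shares were those of Ifng UMIs in T cells and natural killer cells in each library. The count was that of induced genes at least 2-fold higher in macrophages, and it was not repeated in other classes. In all, 66 alternatives were run for them, of which 45 stayed close and 21 moved. The shares and the count could only be scored as close or moved, so a turn of direction applies to the ratios alone. None of these ratios turned direction. With cells thinned to 2000 UMIs the ratios were 0.29 for Irf1 and 0.20 for Cxcl9 in macrophages, 2.15 for Cxcl9 in ECs and, against a floor of 3 counts, 2.58 for Ubd in ECs, the Ifng share in sGC Ctr was 100% and the count of induced genes was 0. With each cell given equal weight these were 0.28, 0.053, 1.41, 3.42, 96.0% and 0. Without the 5% of cells with the most UMIs they were 0.41 for Irf1 and 0.12 for Cxcl9 in macrophages and a count of 0. With mitochondrial UMIs under 5% Cxcl9 in macrophages was at 0.21 and the Ifng share at 57.1% in sGC Ctr and 25% in sGC ∆PC. Without the highest cell Cxcl9 in ECs was at 3.00. The count of induced genes was 2 of 38 with genes of at least 20 UMIs, beside 1.87% of all genes. At 1.5-fold it was 6 of 36, beside 4.11%. The counts of 0 stood beside 0.824% of all genes in thinned cells, 4.14% with equal weight and 1.16% without the deepest cells.

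For 30 further ratios 273 alternatives were run, of which 226 stayed close, 36 moved and 11 turned the direction of a ratio whose interval left out 0. Another 12 of the alternatives turned the sign of a ratio whose interval held 0, for Ifng in T cells, Ifngr1 in T cells, ECs and fibroblasts, and Irf1 in granulocytes, dendritic cells and cancer cells. The 11 were Cxcl10 in granulocytes with 1 more marker (0.44) and with a cancer cell RNA share under 25% (0.031), Ifngr1 in macrophages thinned (-0.090) and with equal weight (-0.10), Cxcl9 in fibroblasts with equal weight (-0.018), Cxcl10 in fibroblasts thinned (-1.51), without the deepest cells (-1.32), with equal weight (-1.16) and without the highest cell (-0.0041), and, less the Lyz2-expected level, Ifngr1 (-0.042) and Cxcl9 (-0.86) in cancer cells. The cause was not tested. Of 25 ratios whose interval left out 0, 19 kept their sign throughout. No paired analysis was possible because there is 1 library per condition and the labels give no replicate numbers, and for the same reason no replicate could be left out. Counts limit ECs, pericytes, dendritic cells and T cells most.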

Other observations

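Within macrophages, Ifngr1 and Irf1 were spread over the macrophage parts in different ways. Monocytes held the most Ifngr1 of the 3 parts, at 242 CPM (218 to 268) in sGC Ctr and 230 (206 to 256.5) in sGC ∆PC, above MHC class II high macrophages at 180 in each and Mrc1 macrophages at 103 and 110. None of these ratios had an interval that left out 0. The Irf1 ratio was -0.24 (-0.66 to 0.17) in monocytes, 0.06 (-0.27 to 0.38) in Mrc1 macrophages and 0.21 (-0.07 to 0.50) in MHC class II high macrophages. In macrophages that passed no such gate Irf1 stood at 22.6 CPM (20.5 to 24.9) and 38.4 (35.4 to 41.6), a ratio of 0.76 (0.58 to 0.95), and the share of these cells with an Irf1 UMI at equal depth was 4.92% and 6.18%.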
